A study of Mus musculus with 2 samples.

Results

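Voltage-gated and potassium ion channel genes were examined in primary mouse neonatal ventricular cardiomyocytes (mNVCM) on Affymetrix mouse expression arrays. A gene was included when its current or an older symbol began with Kcn, Cacn or Hcn, or was Scn followed by a digit, and when it had a probe set annotated to that gene alone. This rule took 122 of the 18193 genes with a probe set, measured by 257 probe sets. Of the 122 genes, 50 had a log2 value at or above 5.10, the median of all values, on at least 1 of the 2 arrays. Among these, 48 code for channel subunits, and the counts below are over these 48. The other 2 were Sap30bp, a transcription co-repressor partner whose older symbol is Hcngp, and Kcnq1ot1, a noncoding RNA read from within the Kcnq1 locus. In all, 118 of the 122 genes code for subunits, of which 70 stayed below the median signal. The rest were 2 noncoding genes named after Kcnmb4, both below it.

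Of the 2 arrays, 1 was of cells exposed to doxorubicin (Dox) and 1 of cells incubated with conditioned medium of human amniotic fluid stem cells (hAFS-CM) before Dox. The methods state that this medium was collected under hypoxia. Dox is an anthracycline used against cancer that damages the heart. Both cultures came from C57BL6/J mice at 2 days after birth, were kept for 1 h in medium with 0.5% serum, and received 1 μM Dox, with 3 h of hAFS-CM first in hAFS-CM + Dox. The labels give 6 h of Dox for hAFS-CM + Dox and 21 h for Dox, whereas the methods give the same time for both. If the labels hold, time in Dox and hAFS-CM cannot be told apart. No array of untreated cells or of hAFS-CM alone was analysed here, so a ratio does not say which condition is nearer to untreated cells. There was 1 array per condition, which leaves no test, standard error or p-value for any difference, so that precision is limited by how many arrays there are. Differences are given as log2 ratios of hAFS-CM + Dox over Dox, and levels are log2 values after robust multi-array averaging (RMA), which can be compared between arrays for a probe set but not between probe sets or genes.

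Cardiac action potentials are shaped by channels that open in turn. Sodium channels carry the upstroke, L-type calcium channels the plateau and the trigger for contraction, and potassium channels the return to rest, while T-type calcium and HCN channels help to set the pace of spontaneous beating, which neonatal cells still show. Pore-forming subunits do so together with auxiliary subunits that set gating, drug binding and delivery to the membrane.

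As a yardstick for spread, the SD between log2 ratios from different probe sets to a single gene was 0.21, over 5299 of the 9010 genes with several probe sets. It describes probe sets on these arrays and not cultures. In the channel genes with more than 1 probe set at or above the median signal, of which there were 11, this SD was 0.32.

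At the brightest probe set of each gene, no channel gene differed by 2-fold or more in either direction, while dimmer probe sets of Kcne1, Kcnj3, Kcnip2 and Cacna2d1 were lower by over 2-fold. Among all 12238 genes at or above the median signal, 0.719% were higher and 0.294% lower by 2-fold or more with hAFS-CM + Dox. By 1.5-fold or more, 3 channel genes were higher, which is 6.25% of 48 against 3.04% of all genes. One of them, Kcnk2, reached the median signal only on the array where it was higher, and with both arrays required to reach it 2 of 43 genes were higher. Another 3 were lower, 6.25% against 1.97%. The higher genes were Kcne4, Kcnk2 and Kcnj15, all of potassium channels, and the lower genes were Cacna1g, Kcnj3 and Kcne1, of calcium, inward rectifier and delayed rectifier channels. Smaller differences leaned downward, in that 17 genes (35.4%) were lower by at least the SD of 0.21 and 7 (14.6%) were higher, with 24 within it. In all genes these shares were 16.3% and 18.9%. Of the lower channel genes, Hcn2 and Kcnf1 reached the median signal only with Dox. Of the higher ones, Kcnk2 and Kcna6 reached it only with hAFS-CM + Dox. The median log2 ratio of the 48 genes was -0.08, with 31 below 0 and 17 above it, beside a median of 0.01 in all genes. These shares stand side by side without a test.

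**Figure D1:**
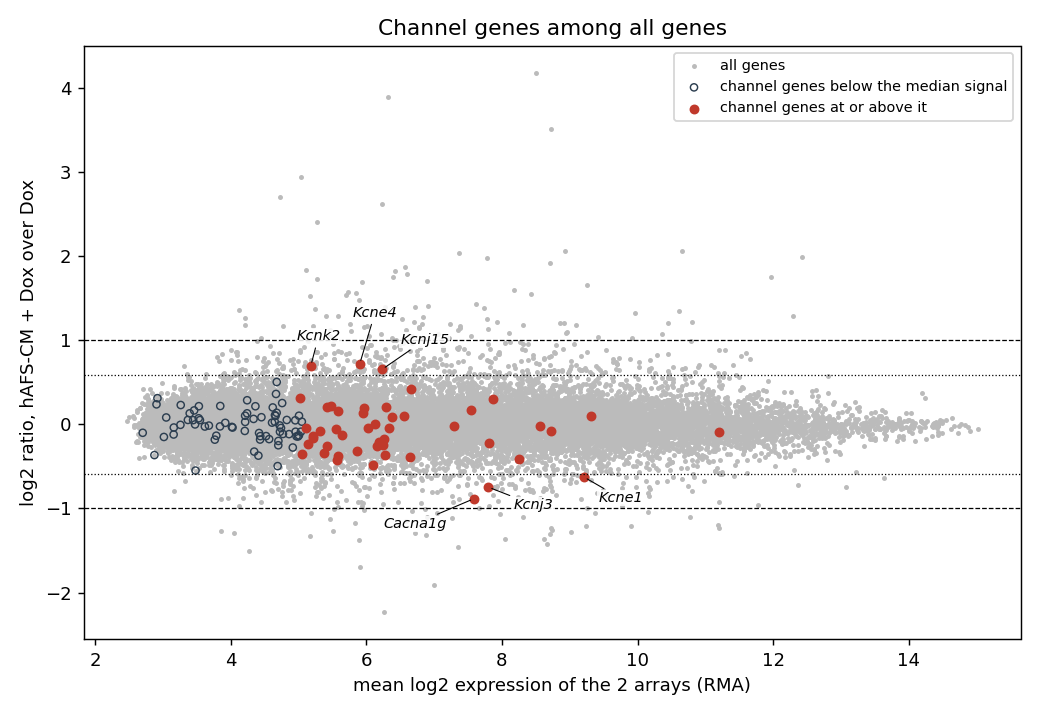
Log2 ratio of hAFS-CM + Dox over Dox against mean log2 expression of both arrays, 1 point per gene. Grey points are all genes, open circles the 70 channel genes below the median signal, filled red points the 48 at or above it. Dotted lines mark 1.5-fold and dashed lines 2-fold. The 6 channel genes past 1.5-fold are named, and none lies past 2-fold.

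Upstream sequence is shown for the 3 of these 6 genes that have a single start site in the promoter table of RefSeq genes on GRCm38.p6. Each window holds the 250 bases before the start, on the strand of the gene. Motifs were searched on both strands: the TATA box TATAAA, the GC box GGGCGG, the AP-1 site TGANTCA, the E-box CACGTG, and the NF-κB, CArG and MEF2 sites. Capitals mark a match. The window of Kcne4 lies at chr1:78816661-78816910 on the plus strand, that of Kcnj3 at chr2:55435720-55435969 on the plus strand, and that of Kcnj15 at chr16:95257308-95257557 on the plus strand.
Kcne4: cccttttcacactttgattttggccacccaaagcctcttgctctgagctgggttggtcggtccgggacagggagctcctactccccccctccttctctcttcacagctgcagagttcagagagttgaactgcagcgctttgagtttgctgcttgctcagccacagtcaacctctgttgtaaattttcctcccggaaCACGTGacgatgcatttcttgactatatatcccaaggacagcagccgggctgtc
Kcnj3: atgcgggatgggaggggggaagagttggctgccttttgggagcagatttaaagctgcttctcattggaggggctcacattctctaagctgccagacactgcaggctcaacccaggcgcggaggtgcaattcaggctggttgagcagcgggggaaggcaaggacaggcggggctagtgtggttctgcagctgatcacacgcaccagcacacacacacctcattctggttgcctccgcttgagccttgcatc
Kcnj15: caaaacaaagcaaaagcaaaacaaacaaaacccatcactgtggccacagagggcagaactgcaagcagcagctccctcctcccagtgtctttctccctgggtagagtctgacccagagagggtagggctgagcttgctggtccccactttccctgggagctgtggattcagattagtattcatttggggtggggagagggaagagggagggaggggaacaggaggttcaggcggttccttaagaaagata
The Kcne4 window held 1 match, an E-box at -54 to -49 from the start, with which no other match overlapped. An E-box was present in 6.02% of the 32851 windows in the table. The windows of Kcnj3, lower with hAFS-CM + Dox, and Kcnj15, higher, held none of the 7 motifs. Their shares of all windows were 12.4% for the TATA box, 32.7% for the GC box, 6.75% for AP-1, 7.25% for NF-κB, 1.47% for CArG and 2.92% for MEF2. A match is a run of letters and not a shown binding site.

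Sodium channels carry the inward current that starts the action potential. All 8 pore-forming genes with a probe set were below the median signal on both arrays, from Scn10a at a log2 ratio of -0.32 to Scn2a at 0.23. Of the beta subunits, which steer gating and membrane placement, only Scn3b passed, at 5.21 with hAFS-CM + Dox and 5.55 with Dox, a log2 ratio of -0.34. Its other probe set, below the median, gave 0.07. Scn4b, also a cardiac beta subunit, was below the median at 4.31 and 4.18.

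The largest difference among the pore-forming calcium channel genes was in the T-type channel. Cacna1g, which codes for the T-type pore Cav3.1 that opens near the resting potential, read 7.14 with hAFS-CM + Dox and 8.03 with Dox at its single probe set. The log2 ratio was -0.88, or 1.85-fold lower, short of 2-fold. In RNA from a whole culture, fewer cells that express a gene and less RNA per cell cannot be told apart. The other T-type gene of the heart, Cacna1h, was below the median at 4.58 and 4.83, with a ratio of -0.25.

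The main subunits of the cardiac L-type channel, Cacna1c, Cacnb2 and Cacna2d1, had ratios within the SD at their brightest probe sets. Cacna1c, which codes for the cardiac L-type pore Cav1.2, read 8.69 with hAFS-CM + Dox and 8.77 with Dox, a log2 ratio of -0.08. Its second probe set, also above the median, gave -0.31. Cacnb2, the beta subunit that carries the pore to the membrane, read 8.56 and 8.57, a ratio of -0.02. Cacna2d1, the alpha2delta subunit that raises the density of channels, read 11.16 and 11.25 at its main probe set, a ratio of -0.09. However, its 5 probe sets did not read alike, as a less bright one gave 7.40 against 8.46, or -1.06, while the rest lay between -0.40 and -0.08. Cacna1d, the L-type pore of pacemaker cells, was below the median at 4.72 and 4.73.

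Taken by family, all 4 pore-forming calcium channel genes at or above the median were below 0 at their brightest probe sets. Their median log2 ratio was -0.19, and 2 of them were lower by at least the SD, as were 16.3% of all genes. Ratios below 0 were found in 5851 of all 12238 genes. Of the 7 auxiliary genes, 6 were below 0, with a median of -0.09. The extremes were Cacna2d2, another alpha2delta gene, at 6.10 against 6.46 (-0.36) and Cacng7, a gamma subunit, at 6.39 against 6.19 (0.20). Both differed in sign between probe sets, with 0.01 and 0.06 at the other probe sets of Cacna2d2 and -0.19 at the second of Cacng7.

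HCN channels pass the pacemaker current that hyperpolarisation switches on. Hcn3 read 5.36 with hAFS-CM + Dox and 5.79 with Dox, a log2 ratio of -0.43. Hcn2 read 5.02 and 5.25, a ratio of -0.23, and reached the median signal only on the Dox array. Both were lower by more than the SD at a single probe set each.

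**Figure D2:**
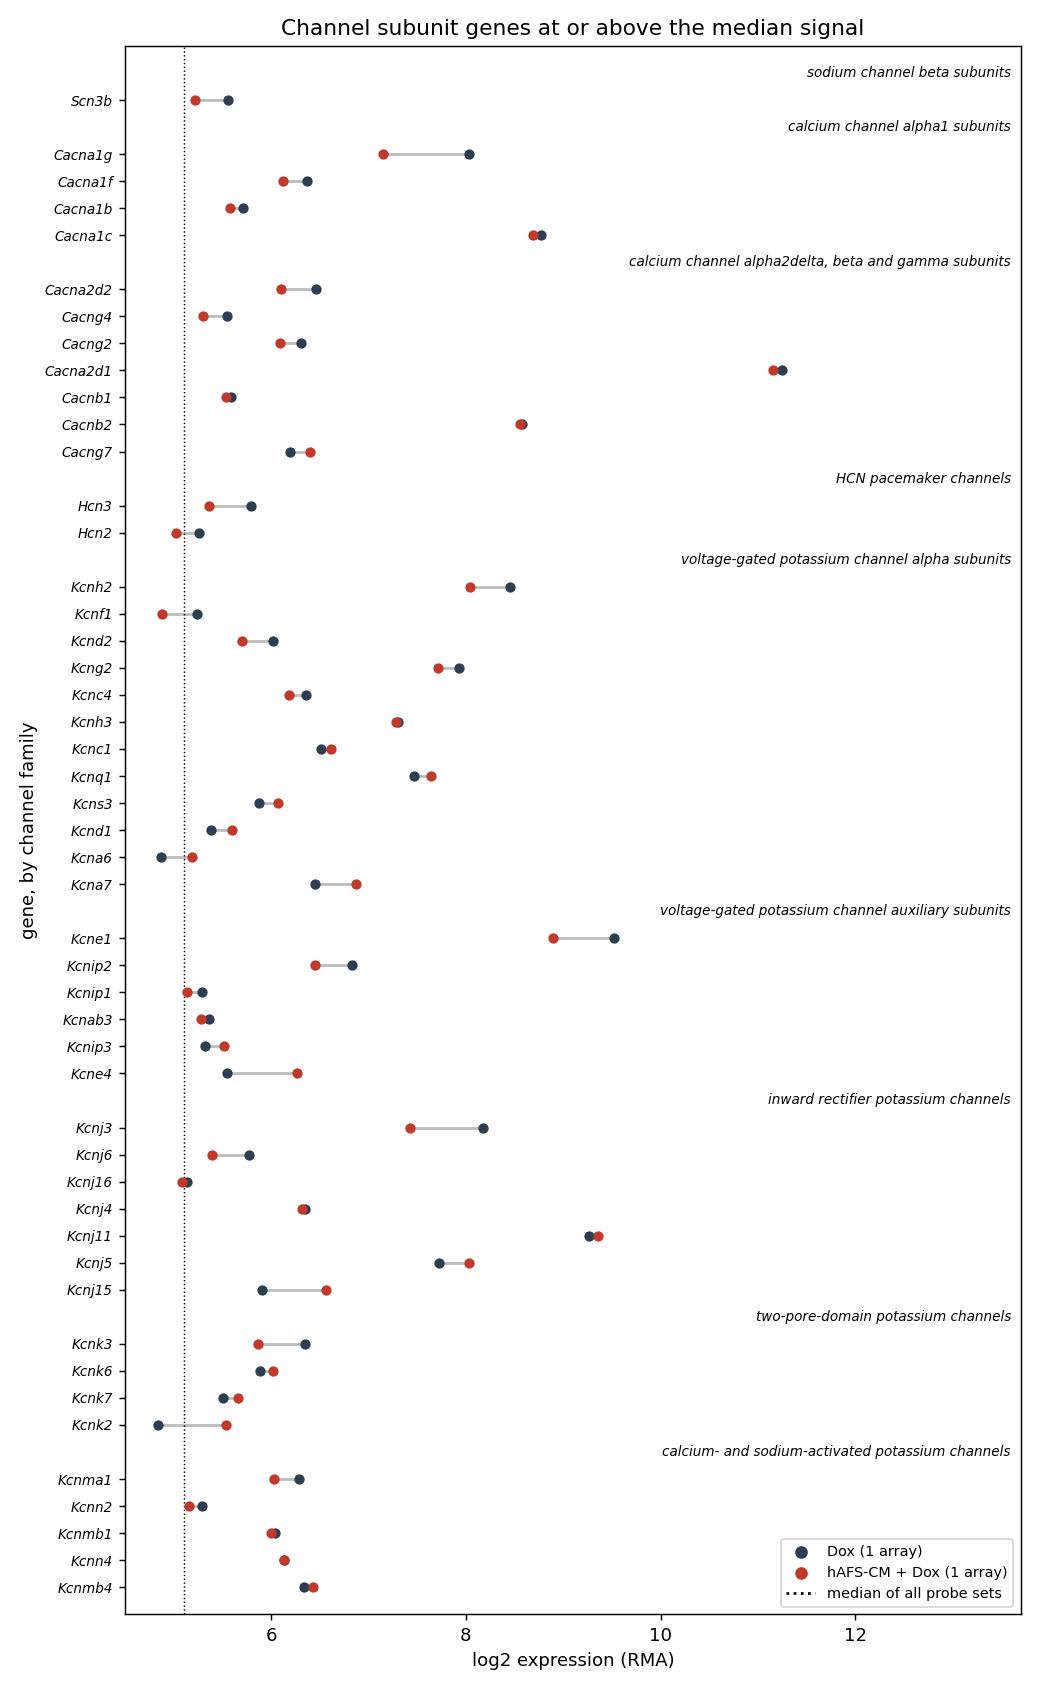
Log2 expression after RMA with Dox (dark points) and with hAFS-CM + Dox (red points) for the 48 channel subunit genes at or above the median signal, grouped by family and ordered by log2 ratio. Lines join both arrays of a gene, and 5.10, the median over the probe sets, is dotted. Levels differ between probes, so only the gap within a row is a comparison, and the widest gap is that of Cacna1g, 7.14 against 8.03.

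Voltage-gated potassium channels repolarise the cell. Of 31 pore-forming genes, 12 were at or above the median signal, and these split evenly around 0, with 6 higher, 6 lower and a median log2 ratio of 0.04. Kcnh2, whose product hERG forms the rapid delayed rectifier and binds many arrhythmia-causing drugs, was the lowest, at 8.04 with hAFS-CM + Dox against 8.45 with Dox, a ratio of -0.41. Kcna7, a Shaker-type channel of heart and skeletal muscle, was the highest, at 6.87 against 6.45, a ratio of 0.42. Both ratios come from 1 probe set each. They are close to 2 times the SD of 0.21 over all genes, but nearer to the SD of 0.32 in channel genes.

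Kcnq1 and Kcne1, which together form the slow delayed rectifier, stood on opposite sides of 0. Kcnq1, the pore, read 7.64 with hAFS-CM + Dox and 7.47 with Dox, a ratio of 0.17 that lies within the SD. Kcne1, the auxiliary subunit that slows its opening, read 8.90 against 9.52, a ratio of -0.63, or 1.54-fold lower. A second probe set of Kcne1 read 7.01 against 8.04, a ratio of -1.03, past 2-fold. Both Kcne1 probe sets were thus lower with hAFS-CM + Dox, and they differed from each other by less than the ratio of either.

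Kcne4, another member of the family of Kcne1, whose product inhibits several voltage-gated potassium channels including that of Kcnq1, had the highest log2 ratio of the 48 genes. It read 6.26 with hAFS-CM + Dox and 5.54 with Dox, a ratio of 0.72, or 1.65-fold. There was no second probe set to set beside it. Kcne2, a partner of hERG, was below the median at 3.47 and 3.42.

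The genes of the fast transient outward current, which gives the early notch of repolarisation, were lower at their main probe sets. Kcnd2, a pore, read 5.70 with hAFS-CM + Dox and 6.02 with Dox, a ratio of -0.32. Kcnip2, which codes for the calcium sensor KChIP2 that this current needs, read 6.45 and 6.83, a ratio of -0.39. Neither gene read the same at all its probe sets. For Kcnip2, a dimmer probe set gave 4.21 against 5.29, or -1.08, and another, below the median, gave 0.19. The 4 probe sets of Kcnd2 ran from -0.37 to 0.39, with those other than the main one below the median. Kcnd3, the second pore of this current, was below the median at 4.01 and 4.05.

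For 2 further cardiac pores the signal was low on both arrays. Kcna4, of the slow transient outward current, read 4.93 against 4.43 (0.50) at one probe set and 3.52 against 4.40 (-0.89) at the other, both below the median and of opposite sign. Kcna5, of the ultrarapid delayed rectifier, read 3.26 on both arrays. Over the 6 auxiliary genes of voltage-gated potassium channels at or above the median, the median ratio was -0.12, with 4 below 0 and 2 above it.

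Inward rectifiers hold the resting potential and answer to acetylcholine and to the energy state of the cell. Their 7 genes at or above the median had a median log2 ratio of -0.04 and the widest range of any family, from -0.75 to 0.65. Kcnj3 and Kcnj5, the GIRK1 and GIRK4 subunits whose heteromer carries the current that acetylcholine activates, had ratios of opposite sign. Kcnj3 read 7.43 with hAFS-CM + Dox and 8.18 with Dox, a ratio of -0.75, or 1.68-fold lower.

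Its other probe sets gave 7.05 against 7.19 (-0.14), 5.87 against 6.99 (-1.12) and, below the median, 3.16 against 3.03 (0.13). The 3 brighter probe sets of Kcnj3 thus had the same sign and sizes that spanned almost 1 log2 unit. Kcnj5 read 8.03 against 7.72 at its main probe set, a ratio of 0.30, and 5.60 against 5.23 at the second, 0.38. Both probe sets of Kcnj5 were higher by more than the SD.

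Kcnj15, an inward rectifier best known from kidney and other epithelia, was the highest of the family, at 6.56 with hAFS-CM + Dox and 5.91 with Dox. The ratio was 0.65, or 1.57-fold. A second probe set read 5.67 against 5.39, a ratio of 0.28, and the third, below the median, -0.02. Kcnj16, a partner of other inward rectifiers, lay just inside the signal threshold and had a ratio of -0.05.

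Kcnj11, the Kir6.2 pore of the ATP-sensitive channel that links membrane potential to metabolism, read 9.36 with hAFS-CM + Dox and 9.26 with Dox, a ratio of 0.09. Its second probe set, below the median, gave -0.18. Kcnj8, the other pore of this channel, was below the median at 4.91 and 5.00. The classical inward rectifiers of ventricular muscle, Kcnj2 and Kcnj12, were also below it. Kcnj2 read 2.94 and 3.09, and Kcnj12 read 4.22 and 4.60, a ratio of -0.37.

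Leak channels of the K2P family set the background potassium current. The 4 genes at or above the median had a median ratio of 0.14, the highest of any family with more than 2 genes. Kcnk2, whose product TREK-1 answers to stretch, lipids and temperature, read 5.53 with hAFS-CM + Dox and 4.83 with Dox, a ratio of 0.70, or 1.62-fold. It passed the signal threshold on the hAFS-CM + Dox array only and had no second probe set. Kcnk3, whose product TASK-1 is blocked by acid, was the lowest of the family, at 5.86 against 6.34, a ratio of -0.48. Its other probe sets, both below the median, gave 4.75 against 4.82 (-0.07) and 4.84 against 3.90 (0.94), so the direction of Kcnk3 depends on the probe set taken.

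Calcium-activated potassium channels couple calcium to membrane potential, and the 5 genes at or above the median had ratios no further from 0 than -0.26 and 0.09. Kcnma1, the pore of the large-conductance BK channel, read 6.03 with hAFS-CM + Dox and 6.28 with Dox, a ratio of -0.26. Its other probe sets, below the median, ran from -0.15 to 0.12. Kcnmb4, a BK beta subunit, read 6.42 and 6.34, a ratio of 0.09. Kcnn2, an SK channel present in heart, read 5.15 and 5.28, a ratio of -0.13. Over the 34 potassium channel genes as a whole the median was -0.03, with 7 (20.6%) higher and 10 (29.4%) lower by at least the SD, beside 18.9% and 16.3% of all genes. The share of higher genes was thus near that of all genes.

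The other members at or above the median signal had log2 ratios from -0.38 to 0.32. Cacna1f, an L-type pore best known from the retina, had a log2 ratio of -0.24 (6.12 against 6.36), and Cacna1b, the N-type pore of nerve endings, -0.13 (5.58 against 5.71). The gamma subunits Cacng4 and Cacng2 had -0.25 and -0.21, and the beta subunit Cacnb1 had -0.06. None of these 5 calcium channel genes was above 0 at its brightest probe set. Cacna1b, Cacng2 and Cacnb1 each had another probe set above 0, at 0.18, 0.03 and 0.17.

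Among the other voltage-gated potassium pores, Kcnf1, Kcng2 and Kcns3, which form no channel alone and modify their partners, had -0.36, -0.22 and 0.19. Kcnc4 and Kcnc1, fast channels of the Kv3 family, had -0.18 and 0.10, and Kcnh3, a relative of hERG from brain, had -0.02. Kcnd1 and Kcna6 were higher, with 0.22 and 0.32, though another probe set of Kcnd1, below the median, gave -0.26. Their auxiliary subunits Kcnip1, Kcnab3 and Kcnip3 had -0.16, -0.08 and 0.20. These genes therefore lay on both sides of 0.

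Of the remaining inward rectifiers, Kcnj6, the GIRK2 subunit of neurons, read 5.39 with hAFS-CM + Dox and 5.77 with Dox, a ratio of -0.38, and Kcnj4 had -0.04. The K2P genes Kcnk6 and Kcnk7 had 0.13 and 0.16. The BK beta subunit Kcnmb1 and the intermediate-conductance channel gene Kcnn4 had -0.05 and 0.01. Apart from Kcnj6, these ratios were within the SD.

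Probe sets were then compared within genes, since the value of a gene rested on its brightest probe set. Among the 48 genes, 15 had 1 probe set and 33 had several, of which 14 had the same sign throughout and 3 spanned over 1 log2 unit. Most of the disagreement involved dim probe sets, as 10 of the 11 genes with several probe sets at or above the median had the same sign at these. Of the 64 such probe sets of channel genes, none was higher by 2-fold or more and 4 were lower, one each of Kcne1, Kcnj3, Kcnip2 and Cacna2d1. That of Kcnip2 (4.21 against 5.29) reached the median on the Dox array only. Of all 20872 probe sets with 1 gene at or above the median, 0.647% were higher and 0.417% lower by 2-fold or more. Each of the 4 genes had a brighter probe set with a smaller difference in the same direction. Whether the probe sets of a gene report different transcripts was not tested.

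**Figure D3:**
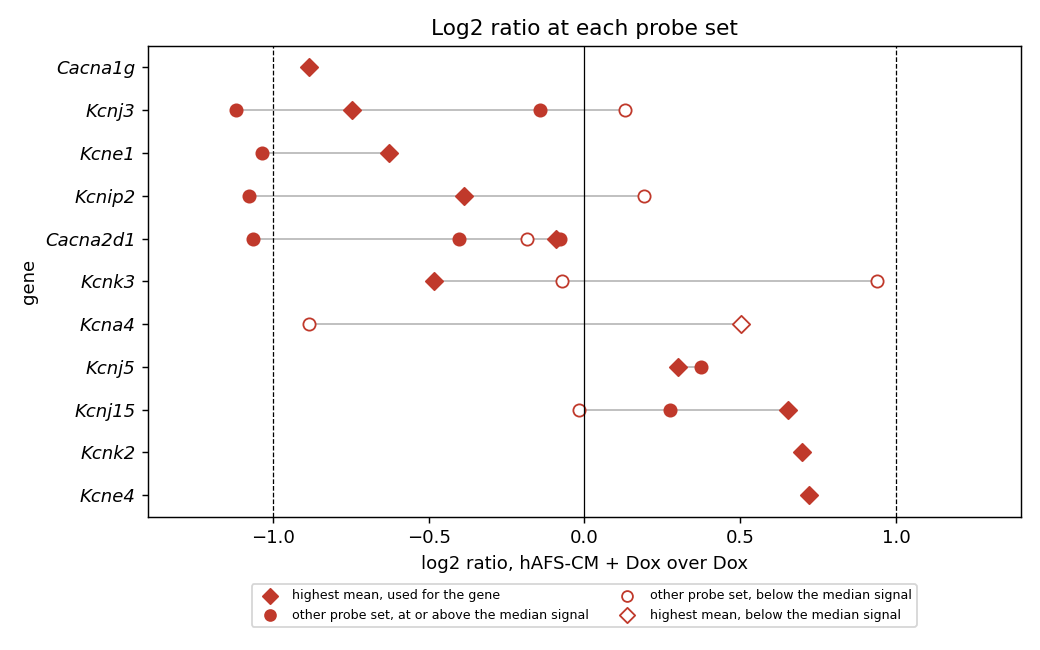
Log2 ratio of hAFS-CM + Dox over Dox at every probe set of 11 channel genes, with diamonds for the probe set used for the gene, filled symbols at or above the median signal and open symbols below it. Dashed lines mark 2-fold. Kcnj3, Kcne1, Kcnip2 and Cacna2d1 each have a filled circle left of -1, while their diamonds lie between -0.75 and -0.09.

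Subunits that assemble into a channel did not always share a direction, as seen in complexes that were put together after the values had been seen. The slow delayed rectifier (Kcnq1 0.17, Kcne1 -0.63) and the acetylcholine-gated channel (Kcnj5 0.30, Kcnj3 -0.75) had one subunit on each side of 0. Of these subunits, only Kcnq1 lay within the SD of 0.21. For the ATP-sensitive channel, the ratio of the pore Kcnj11 was 0.09, that of the sulfonylurea receptor Abcc9 -0.17 (12.05 against 12.22) and that of Abcc8 -0.42 (6.26 against 6.68). Kcnj11 and Abcc9 were within the SD. The L-type subunits Cacna1c, Cacnb2 and Cacna2d1, by contrast, lay within 0.1 of 0 at their main probe sets. The transient outward subunits Kcnd2 and Kcnip2 were both lower. Protein and current were not measured on these arrays.

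**Figure D4:**
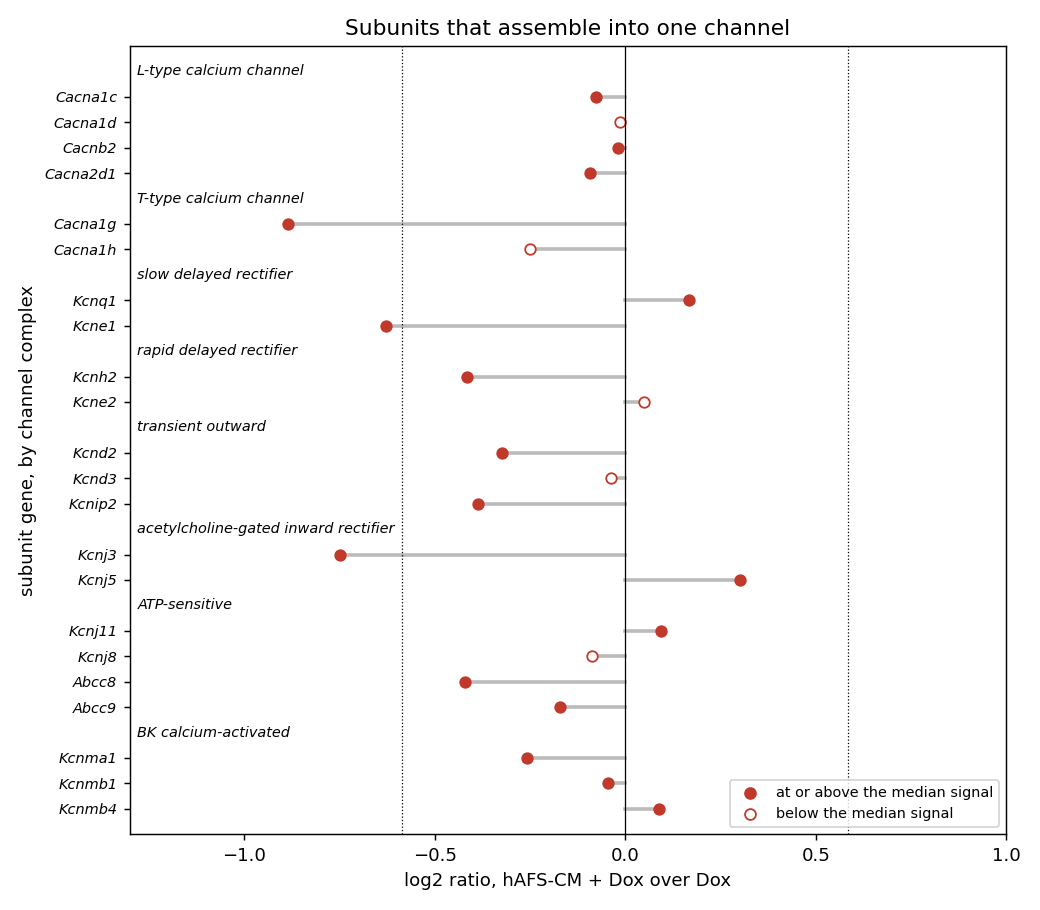
Log2 ratio of hAFS-CM + Dox over Dox for subunits grouped by the channel they form, with filled points at or above the median signal and open points below it. Dotted lines mark 1.5-fold. The slow delayed rectifier and the acetylcholine-gated inward rectifier each hold a subunit at or past 1.5-fold lower (-0.63 and -0.75) beside a subunit above 0. In the slow delayed rectifier the subunit above 0, Kcnq1 at 0.17, lies within the SD between probe sets.

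A list of 30 channel genes with a known role in cardiac excitability was counted in the same way. It was chosen with earlier results of these data known, so its shares only describe the list. Of its 25 measured genes, 16 were at or above the median signal, with a median log2 ratio of -0.18. Of these, 8 (50%) were lower by at least the SD and 2 (12.5%) were higher, beside 16.3% and 18.9% of all genes. The higher genes were Kcnj5 and Kcnk2, the latter above the median signal only with hAFS-CM + Dox. The lower genes were Cacna1g, Kcnj3, Kcne1, Kcnh2, Kcnip2, Kcnk3, Kcnd2 and Hcn2, the last of which reached the median signal only with Dox. The direction of some depends on the probe set taken. Probe sets below the median signal gave 0.94 for Kcnk3, 0.39 for Kcnd2, 0.19 for Kcnip2 and 0.13 for Kcnj3. The 9 measured genes below the median are given with their families above, and the listed genes beyond the 25 were not analysed here.

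Partners and regulators of these channels were examined as a second list, also chosen with earlier results of these data known. Of 41 listed genes 36 were measured and 28 were at or above the median signal, with a median log2 ratio of -0.13. Rnf207, a ubiquitin ligase that affects hERG and repolarisation, was the lowest, at 6.62 with hAFS-CM + Dox and 8.08 with Dox, a ratio of -1.46. Its second probe set gave -0.46, in the same direction. Cav3, the caveolin of muscle that scaffolds channels in the membrane, was the highest, at 12.05 against 11.27, a ratio of 0.78 at 1 probe set. These were the only genes of the list past 1.5-fold, which is 3.57% each way, beside 3.04% higher and 1.97% lower of all genes.

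By at least the SD, 12 partner genes (42.9%) were lower and 2 (7.14%) higher, beside the 16.3% and 18.9% of all genes. These members are named after their values were seen. Among the lower ones, Dpp6 (4.71 against 5.19) reached the median signal only with Dox. The lower genes closest to 1.5-fold were Fgf13 at -0.57 (10.97 against 11.54), Fgf11 at -0.56 (4.84 against 5.40, so above the median with Dox only) and Fgf12 at -0.48 (8.21 against 8.69), intracellular fibroblast growth factor homologous factors that bind sodium channel tails. All probe sets of these 3 genes were below 0, whereas Fgf14, of the same family and below the median signal, had -0.06. The membrane anchors Ank2 and Ank3 had -0.31 and -0.38 at their brightest probe sets, with other probe sets up to 0.18 and 0.33. Some other partners of sodium channels lay within the SD, such as Dlg1 at 0.17, Sgk1 at 0.03, Rangrf at -0.06 and Nedd4l at -0.08. Gpd1l was lower, at -0.40 (8.20 against 8.60) with both probe sets below 0, and Cav3 was higher. The second higher gene was Rrad, a small GTPase that restrains L-type channels, at 8.43 against 8.09, a ratio of 0.34. Gem, also of this list, was lower, at 7.09 against 7.39, a ratio of -0.30.

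**Figure D5:**
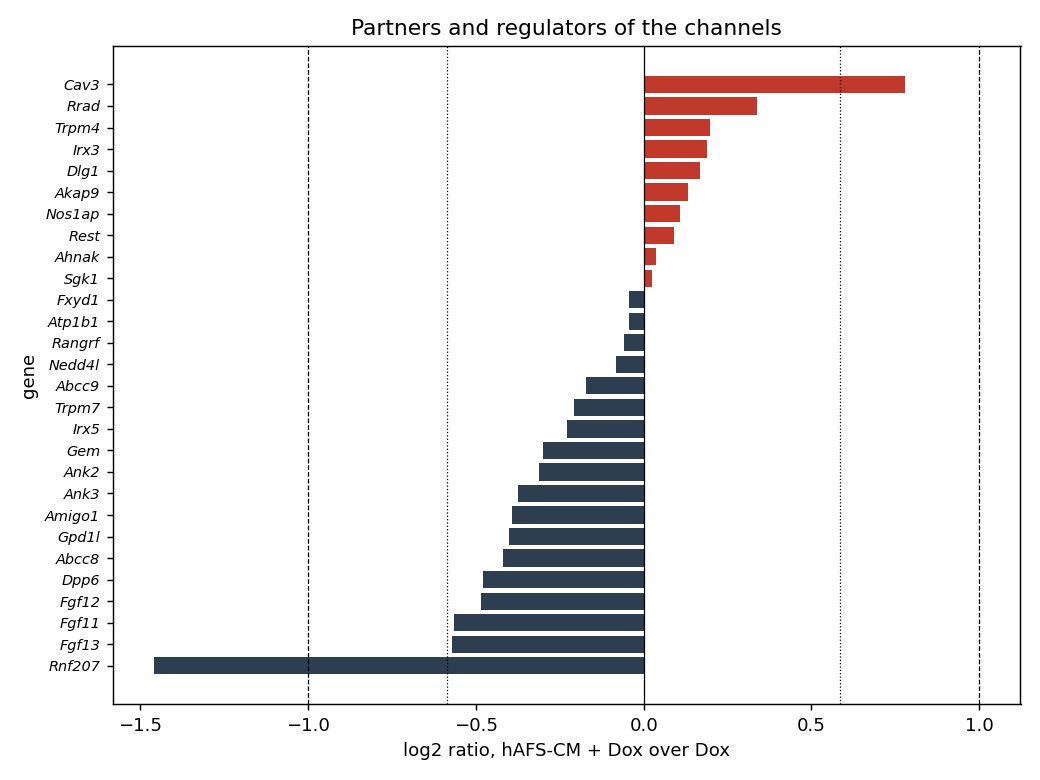
Log2 ratio of hAFS-CM + Dox over Dox for the 28 partner and regulator genes at or above the median signal, bars from 0, red for higher and dark for lower. Dotted lines mark 1.5-fold and dashed lines 2-fold. Bars below 0 outnumber those above it, 18 to 10, from Rnf207 at -1.46 to Cav3 at 0.78.

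The remaining 70 channel subunit genes, below the median signal on both arrays, had a median log2 ratio of -0.01. Their range was from Cacnb4 at -0.55 (3.21 against 3.76) to Kcna4 at 0.50, and none differed by 1.5-fold. The threshold was not a natural gap, since Kcnj16 (5.13 on its higher array), Kcnq1ot1 (5.16) and Kcna6 (5.18) lay just inside it and Kcnk5 (5.08), Cacng8 (5.07) and Kcnk13 (5.07) just outside. Of the 48 genes, 5 reached it on 1 array only, namely Hcn2, Kcnj16, Kcnk2, Kcnf1 and Kcna6. Of the members that code for no subunit, Sap30bp had a ratio of -0.06 (7.55 against 7.60), and Kcnq1ot1 one of 0.20 (5.16 against 4.95) with a range of -0.26 to 0.20 over 6 probe sets. The noncoding Kcnmb4os1 and Kcnmb4os2, both below the median, had -0.34 (3.26 against 3.60) and -0.20 (3.61 against 3.81).

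Markers of the cell types that such cultures can hold were compared between the arrays too. Of all 12238 genes at or above the median, 5851 had ratios below 0. By at least the SD between probe sets, 16.3% of them were lower and 18.9% higher. All 15 cardiomyocyte markers were at or above the median, with 13 lower with hAFS-CM + Dox, a median ratio of -0.10 and a summed signal of 279964 against 297618. Of these markers, 3 (20%) were lower by at least the SD and 12 were within it. Fibroblast markers were lower in 6 of 8 (15477 against 16046) but split in size, from Tcf21 at -1.03 to Pdgfra at 0.79. By at least the SD, 4 of them were lower and 2 higher. Other probe sets of Tcf21 and Pdgfra reached 0.18 and -0.05. Smooth muscle and pericyte markers were higher in 7 of 8 (28927 against 27976), including Myh11, which was below the median. Of the 7 at or above it, 3 were higher by at least the SD and 4 within it. Macrophage markers were higher in 6 of 6 (1207 against 945), led by Cd14 at 0.80, and endothelial markers in 4 of 6 (2233 against 2161). By at least the SD, 4 macrophage markers were higher, whereas 5 endothelial markers were within it. Neuron markers were higher in 5 of 6 (295 against 212), of which 3 were at or above the median, with Tubb3 at 1.56 while Snap25 read 2.90 and 2.86. The 2 measured glia markers had a summed signal of 110 against 107 and ratios within the SD. The part of these differences in the ratios of the channel genes was not tested. Over all probe sets the log2 values of both arrays correlated at Pearson r = 0.995, across probe sets, which are not replicates.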

How the data were processed

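RNA of mNVCM was measured on 2 Affymetrix mouse expression arrays, 1 for hAFS-CM + Dox and 1 for Dox, grouped by their labels. The authors deposited log2 values per probe set, made by RMA with quantile normalization. The submitters' processing notes name RMA; its version was not found in the labels or methods. The values ran from 2.37 to 15.05, which is the basis for reading them as log2.

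Symbols came from the platform annotation, updated through the Entrez ID to RefSeq genes on GRCm38.p6 for 34754 of the 34958 probe sets with 1 gene. Of the 45101 probe sets, 932 had several genes and 9211 none, and 64 controls were left out of the genes. Where a gene had several probe sets, the brightest by mean was used. Genes were called higher or lower past 2-fold, past 1.5-fold, or past the SD between probe sets of a gene. No channel gene lost a probe set to the rule on several genes.

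The genes named are those past 1.5-fold, the cardiac list, the extremes of each family, partners past 1.5-fold and members next to the signal threshold. Members and lists were chosen with earlier results of these data known. Counting was tested on simulated data. Tables were computed with pandas 2.3.3 and numpy 2.4.6 in Python 3.11.15, lowess with statsmodels 0.14.6, and plots with matplotlib 3.10.9.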

Additional observations from a re-analysis of the deposited data

How the results depend on the processing

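Alternatives were no filter on low signal, a filter at the 25th percentile (3.80), a filter on both arrays, the mean of all probe sets, the probe set with the largest change, leaving out less specific probe sets, centring, and lowess correction (span 0.3). The median log2 ratio lay between -0.21 and -0.03 under these. The count of genes higher by 2-fold or more was 0 under each. Use of the probe set that differed most left 34 genes and gave 4 lower by 2-fold or more (Cacna2d1, Kcne1, Kcnip2 and Kcnj3) and 5 lower by 1.5-fold or more; by construction, this choice favours large ratios. Under the other alternatives 0 were lower by 2-fold, 2 or 3 were lower by 1.5-fold and 2 or 3 were higher by 1.5-fold. Of 36 named genes, centring and lowess moved none by 1 SD between probe sets. The mean of probe sets moved 9 and changed the sign of 4, and the largest change moved 10 and changed 5. Leaving out less specific probe sets kept 34 of the named genes, moved 2 and changed the sign of 1. Without those probe sets Cacna1c had -0.31 and Cacna1h 0.01. No paired analysis was possible because there was 1 array per condition. Signal limits the dim genes, and depth does not apply to arrays.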
